A study of Glycine max with 12 samples.

Results

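Transcription factors of the MYB, bHLH, AP2/ERF and LBD families were followed through seed coat development in soybean lines with intact and with ruptured seed coats. The 6 loci are Glyma02g41180 (annotated as MYB20), Glyma08g46040 and Glyma04g37690 (bHLH), Glyma01g41520 (AP2-EREBP), Glyma20g33800 (ERF107) and Glyma18g53440 (LBD41). They were chosen because the study listed them as different between standard and defective seed coats of both backgrounds at 100–200 mg, so their values in that comparison are given as a description and without a test. Each locus has 1 splice model in the files, which makes 6 of the 78773 gene models measured. All 6 were among the 46237 models that reached at least 1 RPKM in no fewer than 2 libraries and were tested.

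The net pattern is a heritable defect in which every layer of the seed coat tears during maturation. Clark standard (CS, alleles *i R T*, black seed) was compared with its isoline Clark defective (CD, *i R T* with Def), and Harosoy standard (HS, *I r t*, yellow seed) with Harosoy defective (HD, *I r t* with Def), where Def stands for an unknown gene or set of genes brought in by repeated backcrossing. Seed coats of greenhouse plants were dissected at seed weights of 50–100, 100–200 and 400–500 mg, and total RNA of each line at each weight was sequenced once, so that there were 12 libraries in 6 isoline pairs and no replicates. The *I*, *R* and *T* alleles, the way the RNA was extracted (a modified procedure for dark seed coats, the standard phenol-chloroform procedure for Harosoy) and the rest of the background differ together between Clark and Harosoy and cannot be told apart.

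MYB and bHLH proteins bind DNA as regulators of transcription and in plants often act in shared complexes, for example over flavonoid genes and the epidermis of the seed. The Arabidopsis MYB20 is a regulator of lignin and phenylalanine synthesis in secondary cell walls. AP2/ERF proteins include the factors that carry ethylene responses to their target genes, and the Arabidopsis ERF107, also called DEWAX, represses genes of cuticular wax synthesis. LBD proteins, named after the boundary of lateral organs, are specific to plants, and the Arabidopsis LBD41 responds to low oxygen.

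The values are RPKM, the reads on a gene model scaled for its length and for the mapped reads of the library. The hits behind them came to between 47.5 and 113.0 M per library, and each RPKM value of the 6 loci rested on 97 to 3032 hits. The 100–200 mg libraries were read on another sequencing platform, with shorter reads, than the libraries of the other weights, so that weight and the platform cannot be told apart, while both libraries of a pair shared a platform. Transcripts of PRP1 and PRP2, proline-rich cell wall proteins of the seed coat, were present in every library. Transcripts of 6 storage protein models of the cotyledon were also above 0 in every library, with sums of 68.5 to 1092 RPKM in the standard and 20.4 to 674 RPKM in the defective libraries. In these bulk samples, fewer cells of a type and less RNA per cell cannot be told apart.

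MYB20, bHLH Glyma08g46040, bHLH Glyma04g37690 and LBD41 had more transcript in the defective than in the standard library at 100–200 mg in both backgrounds, and the AP2-EREBP gene and ERF107 had less. All 6 passed the criteria of at least 5 RPKM in either library and a ratio of at least 2 in both pairs, as their choice required. Of all models, 0.934% were higher and 0.537% were lower in Clark defective by these criteria, against 1.85% and 2.73% in Harosoy defective. The smallest ratio among them was 2.16-fold, for Glyma04g37690 in Clark, and the largest was 16.4-fold, for ERF107 in Harosoy. At that weight the cotyledon storage transcripts summed to 85.8 RPKM in CS, 20.4 in CD, 453 in HS and 408 in HD, and their part in these differences was not tested.

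**Figure D1:**
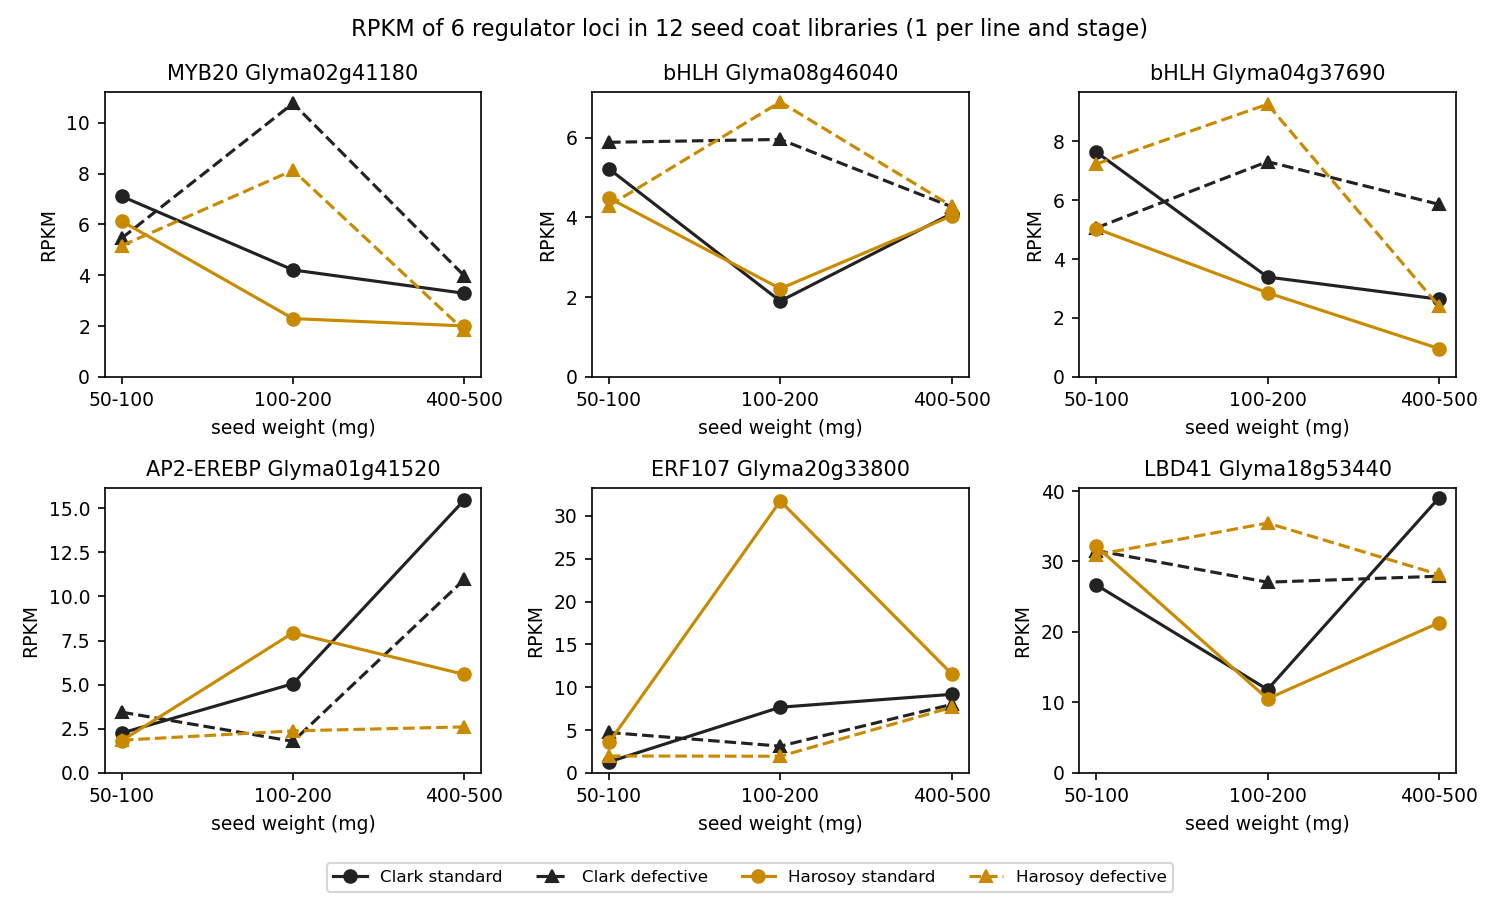
RPKM (y axis, linear, from 0) of the 6 loci against seed weight in mg (x axis), with 1 point for each of the 12 libraries; black marks Clark, ochre marks Harosoy, circles with solid lines are standard and triangles with broken lines are defective lines. The standard and defective lines stand apart at 100–200 mg in every panel, for example at 10.5 and 11.8 against 27.1 and 35.5 RPKM for LBD41.

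MYB20 transcripts in the standard lines were highest in the youngest seed coats. CS held 7.11, 4.21 and 3.29 RPKM at 50–100, 100–200 and 400–500 mg, and HS held 6.13, 2.29 and 2.005 RPKM. CD held 5.46, 10.8 and 3.98 RPKM at the same weights, and HD held 5.16, 8.13 and 1.83 RPKM. Both standard lines were thus lower at 100–200 than at 50–100 mg, whereas both defective lines were highest at 100–200 mg. At that weight the defective library was above the standard library 2.56-fold in Clark (95% counting interval 2.32 to 2.83) and 3.55-fold in Harosoy (3.03 to 4.16). At 50–100 mg the order was the other way, with CS 1.30-fold above CD and HS 1.19-fold above HD. The test over both backgrounds, given below, did not call this early difference. The counting intervals here and below were computed from the recovered hits and cover counting error only. They take each hit as an independent read, although a read could count on several models. Differences between plants or between preparations are not in them.

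The bHLH locus Glyma08g46040 had a dip in the standard lines that the defective lines did not have. bHLH proteins bind DNA as dimers, and the annotation of this locus goes no further than the family. The standard lines held 5.22, 1.90 and 4.10 RPKM (CS) and 4.49, 2.21 and 4.04 RPKM (HS) over the 3 weights. The defective lines held 5.89, 5.96 and 4.27 RPKM (CD) and 4.30, 6.90 and 4.29 RPKM (HD). The 4 lines were alike at 400–500 mg, between 4.04 and 4.29 RPKM, and only the standard libraries at 100–200 mg were below 4 RPKM. Its defective over standard ratio at 100–200 mg was almost the same in the backgrounds, 3.14 in Clark (2.81 to 3.50) and 3.12 in Harosoy (2.76 to 3.53). It was 1.04 and 1.06 at 400–500 mg, and both counting intervals included 1.

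The other bHLH locus, Glyma04g37690, was the one whose defective libraries were above the standard libraries by more than 2-fold at 400–500 mg as well. CS held 7.64, 3.39 and 2.64 RPKM and HS held 5.04, 2.86 and 0.961 RPKM. CD held 5.06, 7.31 and 5.86 RPKM, and HD held 7.23, 9.26 and 2.41 RPKM. Each standard line was lower at each later weight, and each defective line was highest at 100–200 mg. The defective over standard ratio at 100–200 mg was 2.16 in Clark (1.94 to 2.39) and 3.24 in Harosoy (2.86 to 3.69), and at 400–500 mg it was 2.22 (1.93 to 2.56) and 2.51 (2.01 to 3.15). The backgrounds went opposite ways in the youngest seed coats, where CS was 1.51-fold above CD and HD was 1.44-fold above HS.

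LBD41 was the most abundant of the 6, with a mean of 26.9 RPKM over the 12 libraries against 4.46 to 7.69 RPKM for the others. CS held 26.7, 11.8 and 39.0 RPKM over the 3 weights, and HS held 32.1, 10.5 and 21.3 RPKM. CD held 31.6, 27.1 and 27.9 RPKM, and HD held 31.0, 35.5 and 28.2 RPKM. As for Glyma08g46040, the 2 standard libraries at 100–200 mg were the lowest of all 12, and the defective lines stayed between 27.1 and 35.5 RPKM throughout. The defective library was above the standard library 2.29-fold in Clark (2.12 to 2.46) and 3.37-fold in Harosoy (3.08 to 3.69) at 100–200 mg. At 400–500 mg CS was 1.40-fold above CD, while HD was 1.32-fold above HS.

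The AP2-EREBP locus Glyma01g41520 was low in all young seed coats and highest in old Clark seed coats. CS held 2.26, 5.05 and 15.5 RPKM and CD held 3.44, 1.79 and 10.96 RPKM. HS held 1.82, 7.94 and 5.58 RPKM, and HD held 1.85, 2.38 and 2.61 RPKM. The standard line was above the defective line at 100–200 mg 2.83-fold in Clark (2.38 to 3.38) and 3.34-fold in Harosoy (2.83 to 3.95). It was also above it at 400–500 mg, 1.41-fold in Clark (1.28 to 1.55) and 2.14-fold in Harosoy (1.81 to 2.54). At 50–100 mg CD was 1.52-fold above CS (1.30 to 1.79), and the Harosoy libraries were within counting error of each other.

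ERF107 had the widest range of the 6, with 24.7-fold between its lowest and its highest library. CS held 1.28, 7.66 and 9.16 RPKM over the 3 weights, and HS held 3.56, 31.7 and 11.6 RPKM. CD held 4.71, 3.12 and 7.98 RPKM, and HD held 1.97, 1.94 and 7.64 RPKM. The single library at 31.7 RPKM, HS at 100–200 mg, was 2.74-fold above the next library of its line. There HS exceeded HD 16.4-fold (13.5 to 20.04), while CS exceeded CD 2.46-fold (2.10 to 2.88), so the direction was shared and the size was not. At 50–100 mg the backgrounds were opposite, with CD 3.67-fold above CS (2.94 to 4.61) and HS 1.81-fold above HD (1.46 to 2.25), and all 4 libraries were below 5 RPKM.

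**Figure D2:**
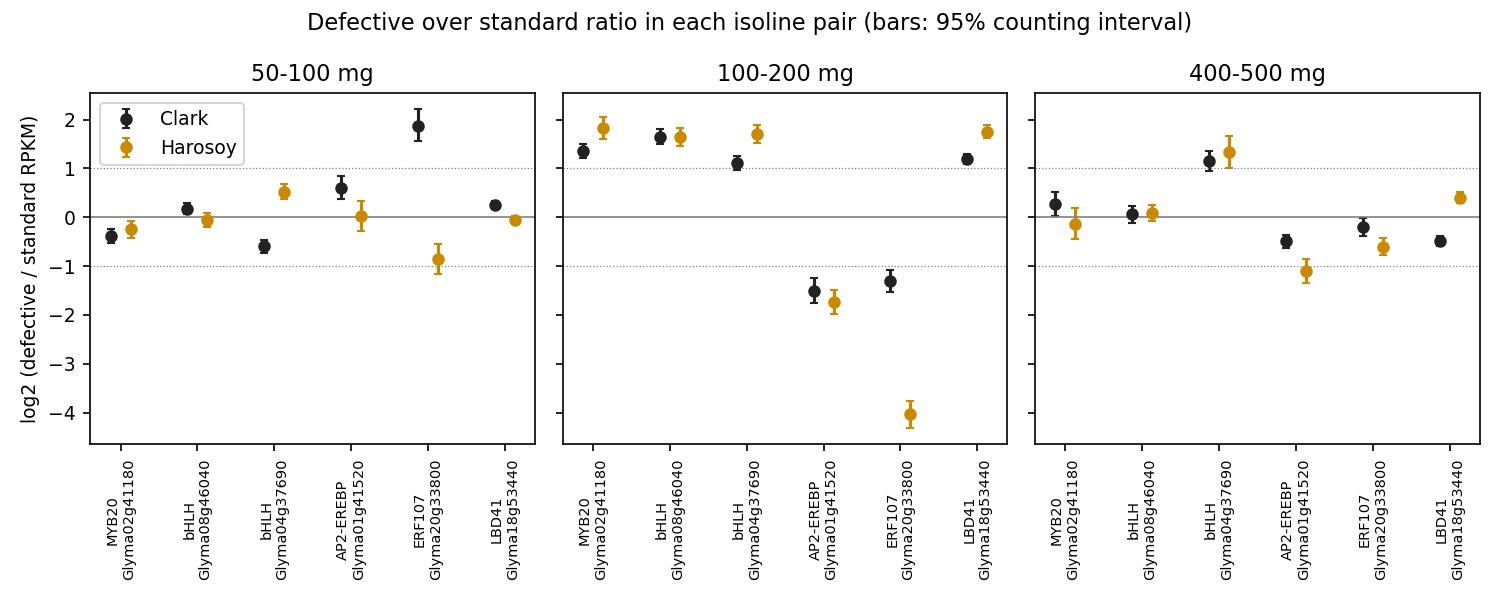
Log2 of defective over standard RPKM (y axis) for the 6 loci (x axis) in the Clark (black) and Harosoy (ochre) pair at each seed weight; bars are 95% counting intervals and dotted lines mark a 2-fold ratio. All 12 points at 100–200 mg lie beyond the dotted lines, which the choice of the loci fixed, and ERF107 in Harosoy lies farthest out at 16.4-fold.

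The 50–100 and 400–500 mg weights played no part in choosing the loci. At 50–100 mg, 0 of the 6 passed the RPKM criteria in either background, where 0.91% of all models were higher and 0.32% lower in Clark defective, and 0.0901% and 0.0825% in Harosoy defective. At 400–500 mg Glyma04g37690 passed as higher in Clark defective (0.386% of all models), where 0.597% of all models were lower and 0 of the 6 were. In Harosoy defective the AP2-EREBP gene passed as lower (1.39% of all models), where 1.48% of all models were higher and 0 of the 6 were. Glyma04g37690 in Harosoy had the ratio but, at 2.41 RPKM, not the level.

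The difference between defective and standard lines was tested over both backgrounds with limma on log2(RPKM + 1), with each pair as a block. At 50–100 mg the 6 differences, defective minus standard, ran from -0.27 for MYB20 to 0.35 for ERF107, and none passed (limma adjusted p = 1 for each, and 0 of 6 at an unadjusted p under 0.05). At 400–500 mg Glyma04g37690 had a difference of 0.86 (SE 0.26) and Glyma01g41520 had a difference of -0.66 (SE 0.18), both with an unadjusted p under 0.05 and an adjusted p of 1. The other 4 differences at that weight lay between -0.36 and 0.06. The same limma fit called 0 of the 46237 models (0%) at either weight, with 646 and 1282 models at an unadjusted p under 0.05. The error in this fit is the disagreement between 2 backgrounds, with 3 residual degrees of freedom. The cotyledon storage transcripts at 400–500 mg summed to 505 RPKM in CS, 237 in CD, 1092 in HS and 674 in HD, and their part in these differences was not tested.

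Development was compared between 50–100 and 400–500 mg, which shared a platform. In the standard lines MYB20 fell by 1.08 on the log2 scale (SE 0.20, limma adjusted p = 0.00519) and Glyma04g37690 fell by 1.43 (SE 0.36, adjusted p = 0.0187), while Glyma01g41520 rose by 1.78 (SE 0.52, adjusted p = 0.0332). These are 2 of 6 lower and 1 of 6 higher, beside 31.3% called of all models tested, 18.4% lower and 13% higher. ERF107 had a difference as large, 1.81, with a wider error (SE 0.59), and missed the threshold at an adjusted p of 0.0505 (0.0437 to 0.0869 under other settings). Glyma01g41520 did not pass with no filter on low values (limma adjusted p = 0.0608). Glyma08g46040 (-0.20, SE 0.17) and LBD41 (-0.02, SE 0.27) did not pass (adjusted p = 0.384 and 0.972). The cotyledon storage transcripts summed to 102 (CS) and 68.5 RPKM (HS) at 50–100 mg and were higher at 400–500 mg in both standard lines, and their part in these changes was not tested.

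In the defective lines MYB20 was again lower at 400–500 mg, where it fell by 0.75 on the log2 scale (SE 0.20, limma adjusted p = 0.0235). It was 1 of 6 lower and 0 of 6 were higher, beside 29.8% of all models called, 19% lower and 10.8% higher. The call was lost without the 4 libraries of 100–200 mg (limma adjusted p = 0.0632) and with quantile normalization (0.0547). The differences of Glyma04g37690 (-0.55), Glyma01g41520 (0.88) and ERF107 (1.10) had the sign they had in the standard lines and did not pass (adjusted p = 0.288, 0.235 and 0.202). The defective values of the AP2-EREBP gene show the spread behind this, since it went from 3.44 to 10.96 RPKM in Clark and from 1.85 to 2.61 RPKM in Harosoy. A contrast of the changes themselves, defective minus standard, gave between -0.90 (Glyma01g41520) and 0.89 (Glyma04g37690), with an adjusted p of 1 for all 6 and 0 of 6 at an unadjusted p under 0.05. It called 0 of 46237 models (0%, with 489 at an unadjusted p under 0.05 in limma), and a different course from early to late in the defective lines was therefore not shown for any of them.

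Between the backgrounds, MYB20 was lower in Harosoy than in Clark by a log2 difference of -0.44 (SE 0.11, limma adjusted p = 0.0388), in 6 of 6 matched libraries. The Clark value was 1.06 to 2.18 times the Harosoy value. Without the 4 libraries of 100–200 mg the difference was -0.40 and did not pass (limma adjusted p = 0.198), and it did not pass with no filter on low values (0.0625). It was the 1 of 6 that passed, beside 8.04% lower and 8.33% higher of all models, and 6485 of the 46237 models were lower in all 6 matched libraries. For the other 5 loci the differences lay between -0.51 and 0.29, with adjusted p-values from 0.263 to 0.806. ERF107 was higher in Harosoy in 3 of 6 matched libraries and lower in 3.

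**Figure D3:**
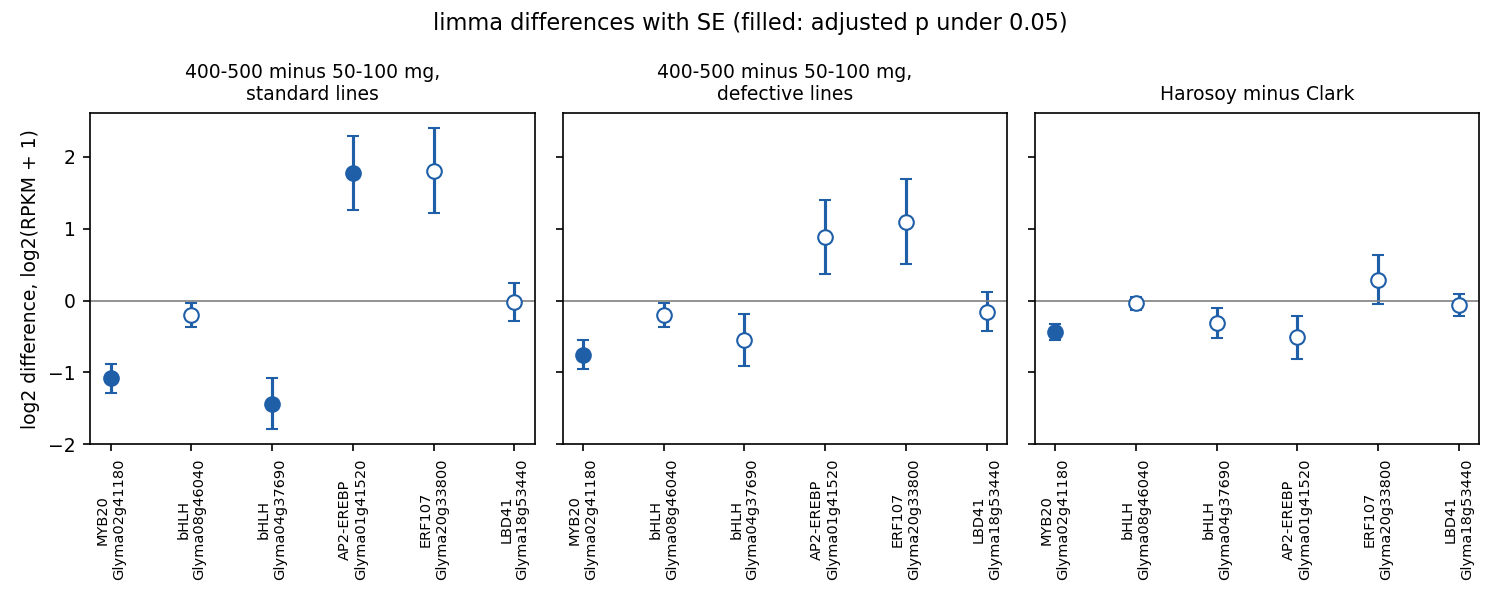
Differences from limma on the log2(RPKM + 1) scale (y axis) with their SE (bars) for the 6 loci (x axis), from 50–100 to 400–500 mg in standard lines, the same in defective lines, and between the backgrounds; filled points have an adjusted p under 0.05. MYB20 is filled in all 3 panels, at -1.08, -0.75 and -0.44.

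The place of the 100–200 mg library in the course was not the same for all 6 loci. It is described here without a test because it includes the values behind the choice. Glyma08g46040 and LBD41 belonged to the 481 models, 1.04% of those tested, that were lowest at 100–200 mg in both standard lines by at least 1.5-fold against each of the other weights. MYB20 belonged to the 3113 models (6.73%) that were highest there by at least 1.5-fold in both defective lines. None of the 6 was among the 807 models (1.75%) lowest there in both defective lines, or among the 2520 models (5.45%) highest there in both standard lines. ERF107 and Glyma01g41520 were highest at 100–200 mg in HS, and in CS they were between their early and late values.

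The profiles over the 12 libraries grouped the 6 loci by these shapes. MYB20 and Glyma04g37690 had a Pearson r of 0.87 on log2(RPKM + 1), Glyma08g46040 and LBD41 had 0.84, and Glyma01g41520 and ERF107 had 0.71. ERF107 was opposite to the 4 loci that were higher in the defective lines, with r from -0.79 (MYB20) to -0.62 (LBD41). Ranks (Spearman rho) gave 0.88 for MYB20 and Glyma04g37690, and 0.81 for Glyma01g41520 and ERF107. By rank, however, Glyma08g46040 was closer to MYB20 (0.79) and Glyma04g37690 (0.75) than to LBD41 (0.52). ERF107 and LBD41 had a rho of -0.34. These correlations are over 12 libraries that share 3 weights, 2 platforms and the genotype contrast that chose the loci, and they are given as a description.

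The loci were also compared with PRP1, PRP2 and the Transparent Testa 1 genes. The study listed these genes as differing in the same contrast that chose the loci. That contrast is part of each r, so its sign was favoured by the choice, and the values are only a description. MYB20 had an r of 0.80 with PRP1, a gene of the early seed coat, and 0.87 and 0.88 with Glyma13g01720 and Glyma14g35140. Glyma13g01720 and Glyma14g35140 are both annotated as Transparent Testa 1, a zinc finger protein needed for pigment of the Arabidopsis seed coat. With PRP2, the proline-rich protein of later seed coats, MYB20 had an r of -0.71, while the AP2-EREBP gene (0.80) and ERF107 (0.84) ran with PRP2. Among the 4 loci with a positive r with PRP1, LBD41 had the lowest, 0.20, while Glyma01g41520 (-0.78) and ERF107 (-0.75) were opposite to PRP1.

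**Figure D4:**
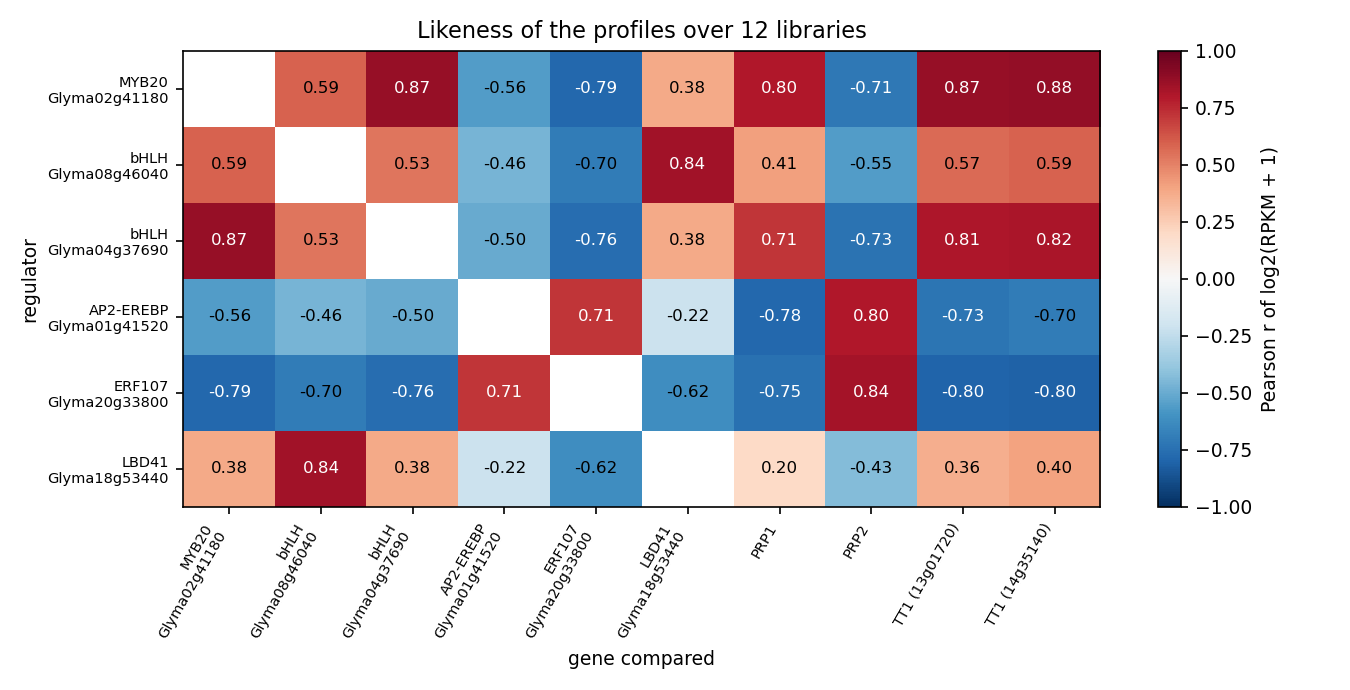
Pearson r of log2(RPKM + 1) over the 12 libraries between each of the 6 loci (rows) and the other loci, PRP1, PRP2 and the Transparent Testa 1 genes (columns); red is positive, blue is negative, and each cell prints its r. MYB20 and Glyma04g37690 (0.87) share the PRP1 side, and ERF107 and Glyma01g41520 (0.71) share the PRP2 side. These sides were favoured by the choice, because the loci and the genes beside them were listed from the same contrast.

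The closest profiles among 31175 models with at least 5 RPKM in some library were looked up for each locus. Each r covers all 12 libraries, and so includes the contrast that chose the loci. Annotated models are those in the study's lists of differing genes. A shared difference at 100–200 mg was thus favoured by the choice, and the values of these closest genes are only a description. MYB20 was closest to the splice models Glyma17g08740.2 (r = 0.97) and Glyma17g08740.1 (0.96), which share reads, and to Glyma12g11560.1, a GPI-anchored protein (0.96). That last gene held 3.51, 2.19 and 0.761 RPKM in CS over the 3 weights and 2.61, 5.09 and 2.19 RPKM in CD, the same order of libraries as MYB20 within each line. Glyma04g37690 was closest to Glyma07g17410.1 (0.93), and among annotated models to Glyma17g04940.1, a pectinesterase inhibitor (0.91). Pectinesterase inhibitors limit the removal of methyl groups from wall pectin. This one held 115.2 RPKM in HS and 528 RPKM in HD at 100–200 mg, and 200.1 RPKM in CS and 271 RPKM in CD.

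Glyma08g46040 was closest to Glyma18g50220.1, a beta-glucan-binding protein (0.90), and its second closest annotated model was LBD41 itself. LBD41 was closest to Glyma10g39710.1 (0.92), which moved over a much narrower span, from 3.69 to 6.18 RPKM. The AP2-EREBP gene was closest to Glyma09g08290.3 (0.97), to Glyma13g10000.1, a receptor-like kinase (0.97), and to Glyma09g08290.1, a JASMONATE-ZIM-DOMAIN PROTEIN 1 (0.97), a repressor of jasmonate responses in Arabidopsis. The latter held 6.38, 14.2 and 69.9 RPKM in CS over the 3 weights and at 100–200 mg was at 33.3 RPKM in HS against 8.91 RPKM in HD, and at 14.2 RPKM in CS against 10.9 RPKM in CD.

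ERF107 was closest to Glyma10g33810.1 (0.98), which held 20.2 RPKM in HS and 1.15 RPKM in HD at 100–200 mg. The next were Glyma18g03310.1, annotated as a putative Hs1pro-1-like receptor (0.96), at 109 and 6.60 RPKM in those libraries, and Glyma03g37530.1 (0.96), at 10.5 and 2.52 RPKM. The closest annotated transcription factor was Glyma12g06630.1, Scarecrow-like 14 (0.95), a GRAS protein of detoxification responses in Arabidopsis, at 26.8 and 5.04 RPKM. In Clark at that weight the standard and defective values of these genes were closer, at 3.51 and 1.83 RPKM for Glyma10g33810.1, 17.604 and 9.40 RPKM for Glyma18g03310.1, 5.04 and 3.39 RPKM for Glyma03g37530.1 and 10.4 and 5.09 RPKM for Glyma12g06630.1. For all 4 the HS library at 100–200 mg was the highest of the 12, as it was for ERF107. A read could be counted on several models, so a near-identical copy of a gene could share its reads, and this was not tested for these genes.

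Other family members were taken from the study's own lists of differing genes, which were made on these libraries and are therefore not independent evidence of direction. Of 14 other MYB models, 7 fell and 0 rose from 50–100 to 400–500 mg in the standard lines, with a median of -1.22 beside 0.00 over all tested models. In the defective lines 10 fell and 0 rose (median -1.61 beside -0.05). Over all tested models 18.4% fell and 13% rose in the standard lines, and 19% fell and 10.8% rose in the defective lines. Glyma20g22230, annotated as MYB86, fell by 3.64 (SE 0.17, limma adjusted p = 4.2e-05) in the standard lines, from 37.4 to 1.86 RPKM in CS and from 35.3 to 2.13 RPKM in HS. The difference of MYB20, -1.08, was smaller in size than that of each of the 7.

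Of 11 other bHLH models, 7 fell and 1 rose in the standard lines (median -2.05), and 6 fell and 0 rose in the defective lines (median -1.40), beside the same shares over all models (18.4% and 13%, and 19% and 10.8%). Glyma09g33590, annotated as bHLH93, fell by 2.77 (SE 0.36, limma adjusted p = 0.0012), and Glyma17g06610 rose by 1.502 (SE 0.43, adjusted p = 0.0328). Glyma04g37690 belonged to the falling majority in the standard lines, and Glyma08g46040, at -0.20, did not pass. Of the bHLH models 3 were lower and 0 higher in Harosoy, beside 8.04% and 8.33% of all models, among them Glyma13g32650 (bHLH25) with a difference of -1.57 (SE 0.20, limma adjusted p = 0.00678).

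Of 13 other AP2/ERF models 11 were tested, and 2 fell and 1 rose in the standard lines, with 2 lower and 0 higher in the defective lines. These counts are near the shares over all models, 18.4% lower and 13% higher in the standard and 19% and 10.8% in the defective lines, and are no result about the family. Glyma07g37410 (RAP2-3, a factor of the low-oxygen response in Arabidopsis) fell by 3.68 (SE 0.49, limma adjusted p = 0.00139). Glyma06g07240 (SHINE 2, an activator of wax and cutin genes in Arabidopsis) fell by 1.60 (SE 0.17, adjusted p = 5.82e-04). Glyma17g15480 (ethylene-responsive factor 1A) rose by 1.99 (SE 0.59, adjusted p = 0.0351), next to 1.78 for Glyma01g41520. The median over the list was 0.85 in the standard and 0.58 in the defective lines. The single other LBD model, Glyma11g05280 (LBD37), was opposite to LBD41 at 100–200 mg, with 69.9 and 72.04 RPKM in CS and HS against 49.0 and 33.5 RPKM in CD and HD.

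**Figure D5:**
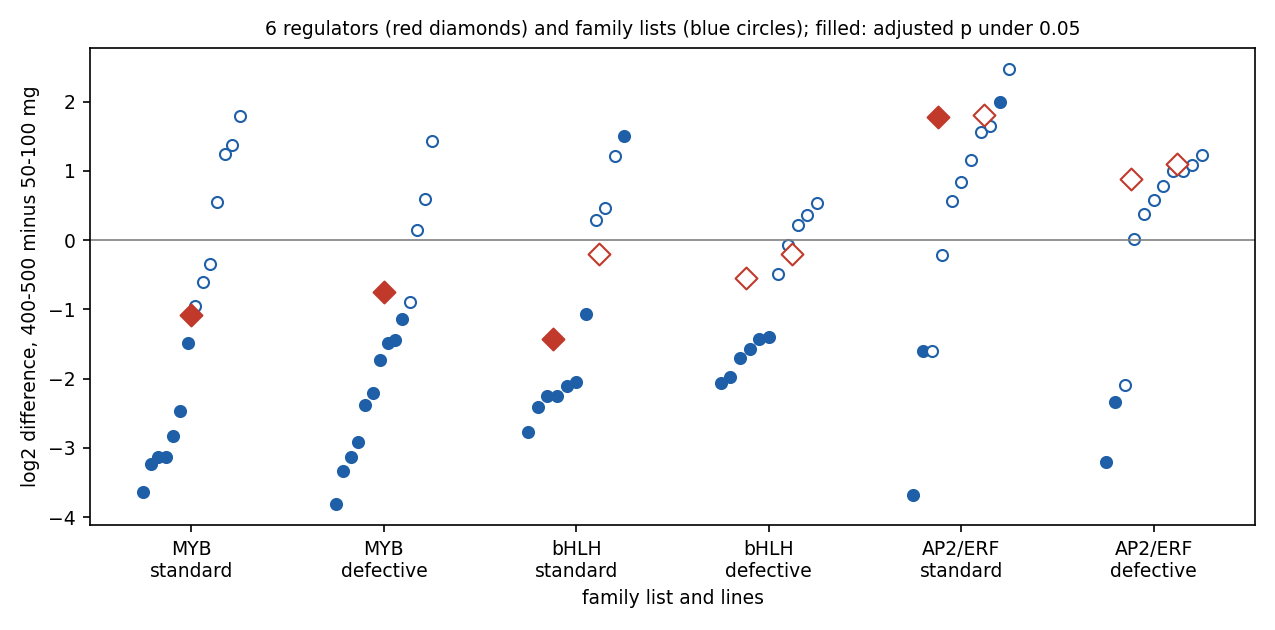
Log2 difference from 50–100 to 400–500 mg (y axis) for other MYB, bHLH and AP2/ERF models (blue circles) and the 6 loci other than LBD41 (red diamonds), in standard and defective lines (x axis); filled points have an adjusted p under 0.05. MYB20 lies above the 7 MYB models that fell in the standard lines, and both AP2/ERF loci lie near the upper end of their family there, at 1.78 and 1.81.

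Lignin-related genes and genes of ethylene synthesis were described in the same way. They too were found by annotation in the study's lists of differing genes, which used the same RPKM criteria. Their counts by these criteria were therefore favoured by the choice. Set beside the shares of all models, they are no evidence about a process. Of 12 lignin-related models, 4 fell and 1 rose from early to late in the standard lines, the same numbers as in the defective lines, beside 18.4% and 13% of all models in the standard and 19% and 10.8% in the defective lines. The riser in both was Glyma01g00730, a probable caffeoyl-CoA O-methyltransferase, at 3.61 (SE 0.67, limma adjusted p = 0.00545) in the standard lines. Of the lignin-related models 3 were higher and 0 lower in Harosoy defective at 100–200 mg by the RPKM criteria, and 1 was higher and 0 lower in Clark defective, while MYB20 was higher in both. Over all models 1.85% were higher and 2.73% lower in Harosoy defective there, and 0.934% and 0.537% in Clark defective. At the other weights lower models prevailed in some pairs. At 400–500 mg 1 was higher and 6 lower in Harosoy defective, beside 1.48% and 1.39% of all models. In Clark defective at that weight 2 were higher and 0 lower, beside 0.386% and 0.597%. At 50–100 mg 0 were higher and 5 lower in Clark defective, beside 0.91% and 0.32%. None passed in Harosoy at 50–100 mg, beside 0.0901% and 0.0825%. Of 11 ethylene synthesis models, 7 were lower in Harosoy defective at 100–200 mg and 0 in Clark defective. At 400–500 mg 9 of the 11 were lower in Clark defective and 6 in Harosoy defective, beside 0.597% and 1.39% of all models, and 0 were higher in either. Several of the 9 were high only in the single CS library of that weight, such as Glyma14g05350 at 82.3 RPKM in CS against 1.02 RPKM in CD. Close copies among these models could share reads, which was not tested. In Clark defective at 50–100 mg 4 were higher and 0 lower (0.91% and 0.32% of all models), and 0 were higher and 1 lower in Harosoy defective (0.0901% and 0.0825%). A further 8 transcription factors, 3 of them NAC proteins, came from the study's list common to both backgrounds. All 8 were lower in both defective lines at 100–200 mg, like ERF107 and Glyma01g41520. That list was made on this contrast and required the same direction in both backgrounds, without setting which direction. That all 8 differed there was therefore fixed by the choice. From early to late in the standard lines 6 of the 8 rose, the 3 NAC proteins among them, and 0 fell. Over all models 13% rose and 18.4% fell there.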

How the data were processed

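Total RNA of dissected seed coats was sequenced as 1 library per line and weight. The authors aligned the reads with Bowtie (version not given in the sources used here) to the cDNA of 78773 soybean gene models, allowing a few mismatches and several alignments per read, and deposited RPKM values, each library scaled on its own. Hits and library totals were recovered from the RPKM steps: all hits were whole within 0.05 for 600 of 600 models checked. They gave totals of 47.5 to 113.0 M and exact binomial 95% counting intervals of the ratios. Each total was above the number of raw reads that the study gives for that library, and a read could count on several models. The intervals take each hit as an independent read, and are too narrow where hits are not independent.

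The tests used limma 3.58.1 (trend method, R 4.3.3) on log2(RPKM + 1) for 46237 models with 1 RPKM or more in 2 or more libraries, adjusted by the Benjamini-Hochberg method over all of them at 0.05. The genotype fit took the 6 pairs as blocks and had an effect per weight (3 residual degrees of freedom). The development fit had 6 genotype-by-weight groups and the background (5 residual degrees of freedom). Both were tested on simulated data. Python 3.11.15 was used for the other steps. Alternatives were other pseudocounts, filters, quantile normalization, sums per locus, fits without the block or the 100–200 mg libraries, and other RPKM criteria.

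The 6 loci and the gene lists were chosen with earlier results of these data known. Annotations came from the study's gene lists, of which 1 was held in part. Named are the 6 loci, PRP1, PRP2 and both Transparent Testa 1 genes, the 3 closest and 2 closest annotated profiles of each locus, and examples among the list models past the threshold; the lists are given by counts. An unnamed column with 2 text notes was not used.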

Additional observations from a re-analysis of the deposited data

Results flagged for a closer look

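In 3 cases the Clark and Harosoy pairs went opposite ways beyond counting error, with 1 library on each side, and the difference between the backgrounds was not tested. At 50–100 mg the log2 ratio of defective to standard on the log2(RPKM + 1) scale was -0.51 in Clark and 0.45 in Harosoy for Glyma04g37690 (bHLH). At the same weight it was 1.32 in Clark and -0.62 in Harosoy for Glyma20g33800 (ERF107), where all values were below 5 RPKM. At 400–500 mg it was -0.47 in Clark and 0.39 in Harosoy for Glyma18g53440 (LBD41).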

How the results depend on the processing

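Of 228 values of the 6 loci under other settings, 218 kept their direction and their side of the threshold, 4 passed newly, 5 no longer passed and 1 changed sign. The Harosoy minus Clark call of MYB20 went from 1 locus to 0 with no filter on low values (adjusted p = 0.0625) and to 0 without the 4 libraries of 100–200 mg (0.198), where the calls over all models went from 7568 to 196. Its late minus early call in the defective lines went from 1 to 0 with quantile normalization (0.0547) and to 0 without the 100–200 mg libraries (0.0632). In the standard lines the 3 calls became 4 with ERF107 under a minimum of 5 RPKM (0.0488), a pseudocount of 0.1 (0.0451), quantile normalization (0.045) and without the 100–200 mg libraries (0.0437), and 2 with no filter, where Glyma01g41520 was at 0.0608. LBD41 changed sign between the backgrounds with quantile normalization (0.0143, adjusted p = 0.961). The cause of these changes was not tested. With no replicate block the genotype fits called 0 of the 6 loci at 50–100 and at 400–500 mg, as with the block, and over all models at 400–500 mg it called 1 in place of 0.

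The models past the RPKM criteria went, with a 3-fold ratio and with a minimum of 1 RPKM, from 969 to 260 and 2007 (Clark 50–100 mg), from 1159 to 349 and 2955 (Clark 100–200 mg), from 774 to 282 and 2114 (Clark 400–500 mg), from 136 to 81 and 473 (Harosoy 50–100 mg), from 3608 to 1880 and 7228 (Harosoy 100–200 mg), and from 2260 to 940 and 4681 (Harosoy 400–500 mg). There was 1 library per line and weight, so no library could be left out within a line.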
